A study of Mus musculus with 8 samples.

Results

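The regions described here are the tallest narrow sites of trimethylated histone H3 lysine 4 (H3K4me3) that were listed with the same width in every H3K4me3 library of cultured mouse germline stem cells. They were chosen from the deposited peak lists. Peaks of the 4 H3K4me3 lists that shared at least 1 bp were merged, which gave 54585 regions. A region was kept when it had a peak in all 4 lists, the same number of covered bases in all 4, a widest peak below 5 kb, no overlap with a peak of trimethylated lysine 27 (H3K27me3) in any list, and a height at or above the 90th percentile of each list. The rule left 2199 regions, 4.03% of all merged regions and 6.24% of the 35229 regions listed in all 4 libraries. Height is the maximum immunoprecipitation signal of a peak (max IP) as the authors give it, and a percentile is its rank within its own list.

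H3K4me3 is written around transcription start sites by the SET1/MLL family of methyltransferases, and tall marks lie mostly at promoters of active genes, many of them rich in CpG dinucleotides. Unmethylated CpG-rich DNA recruits the enzymes through CXXC-domain proteins, and the mark is bound by the general transcription factor TFIID. H3K27me3, written by Polycomb repressive complex 2, marks silenced genes. Both marks together characterise promoters of developmental genes in stem and germ cells.

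Germline stem cells are the cultured form of spermatogonial stem cells, the cells that sustain sperm production. They came from testes of Green mice, labelled C57BL/6 Tg14(act-EGFP)OsbY01 and kept on DBA/2, which express green fluorescent protein under an actin promoter. Their genotype is labelled wild type. All groups grew in a medium based on Iscove's modified MEM with human FGF2, rat GDNF and 1% fetal bovine serum. Culture lasted about 5 months (5M) or about 60 months (60M), and each mark was profiled in 2 libraries per age. Chromatin was cross-linked with formaldehyde and sonicated, in some libraries after MNase digestion, and the labels do not say in which. The age of the donor mice, and whether the libraries of an age came from separate cultures, are not stated, so the spread between libraries may be technical. The peak lists carry no read totals, so the depth is unknown. Positions are given as listed, in bins of 1000 bp that follow the mm9 chromosome lengths. Gene models of mm9 were not used here. The sites are therefore identified by position alone, without genes or exons, and the labelled cell type was not checked against marker genes.

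The regions stood 2.56 to 3.81 times above the median peak of their lists, a separation that the rule itself sets. In 5M replicate 1 their max IP ran from 608.7 to 858.1 with a median of 696.9, where the whole list had a median of 183. In 5M replicate 2 the values ran from 571.3 to 810.9 around a median of 655.3. In 60M replicate 1 the range was 596.5 to 837.9 and the median 671.4. For 60M replicate 2 the values ran from 556 to 776.9 around a median of 611.1. Within a library the tallest region was thus only 1.40 to 1.42 times as high as the lowest. The scaling of this signal is unknown, so levels are compared within a list only, apart from 1 centred log2 scaling given below with its limit. Every region also reached the highest value that the −log10 p against the control takes in these lists, in all 4 of them, which 82.6 to 87.8% of the other stable narrow regions reached. These other 17688 regions meet every condition except the height limit, which they miss in at least 1 list, and serve for comparison below.

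**Figure D1:**
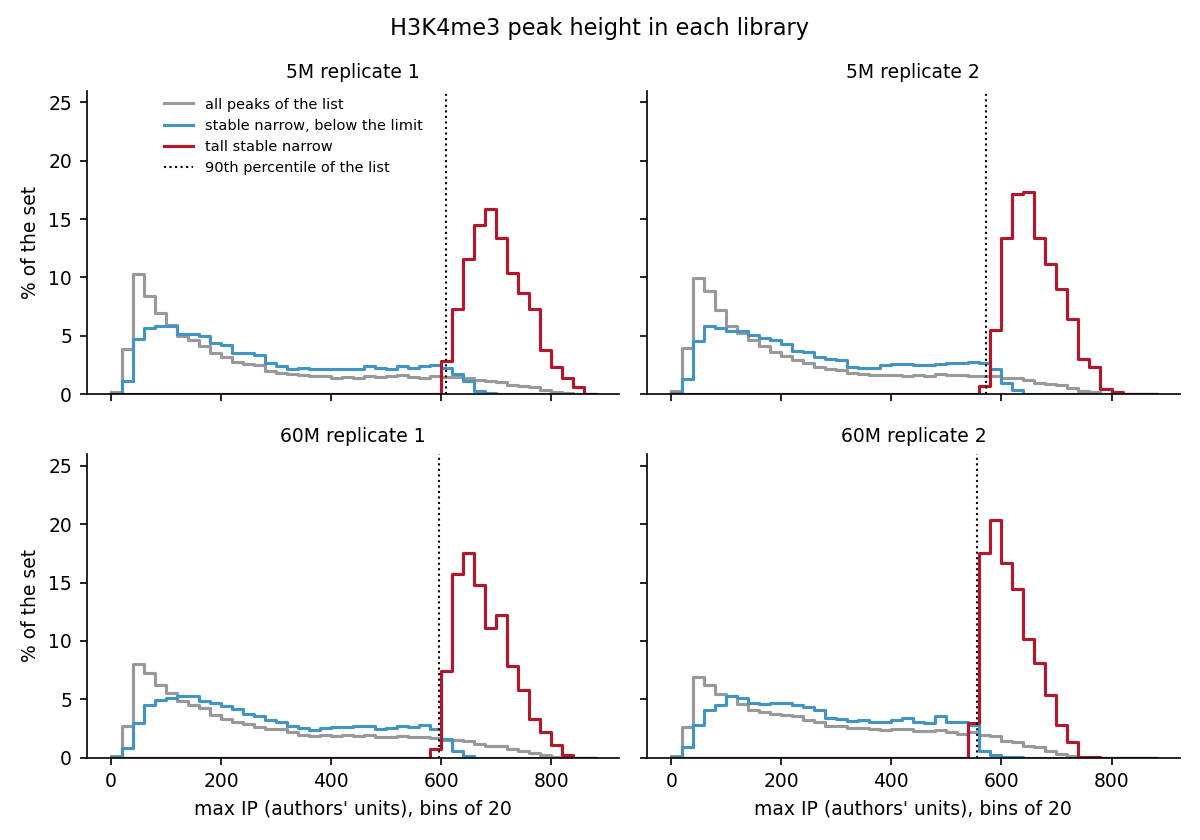
Distribution of max IP (authors' units, bins of 20) in each H3K4me3 library, as a percentage of all listed peaks, of the 17688 stable narrow regions below the limit and of the 2199 tall ones. The tall regions lie at or above the dotted 90th percentile by construction, with medians of 696.9, 655.3, 671.4 and 611.1; the bin that holds the limit starts below it.

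The tallest regions were ranked by their lowest percentile over the 4 lists, so a similar rank in every library follows from the choice. The first was a 4 kb stretch of chromosome 17 (30711000 to 30714999), with max IP of 856.3 and 800.6 in the 5M libraries and 825.6 and 760 at 60M. Next came chromosome 4 (151368000 to 151371999), with 858.1 and 801.2 at 5M and 835 and 753.4 at 60M. A 3 kb region of the same chromosome (62162000 to 62164999) had 846.6 and 806.7 at 5M and 837.9 and 776.9 at 60M. The last value is the highest of its whole list. On chromosome 13 (112278000 to 112281999) the 5M values were 848.2 and 810.9, the latter the highest of its list, and the 60M values were 829.8 and 737.5. In the first replicates of both ages the highest peaks of the list, at 866.5 and 844.8, were not among these regions. Chromosome 3 had the fifth (27607000 to 27610999), with 846 and 798.1 at 5M and 822.7 and 735.9 at 60M. Chromosome 12 had another pair (101437000 to 101439999 and 3805000 to 3809999), and between them in rank stood a chromosome 19 site (29879000 to 29881999). The 20 tallest were spread over 12 chromosomes, 14 of them 4 kb and 6 of them 3 kb in covered width. Their lowest percentiles ran from 99.8 to 99.99. All 20 were at least 37 kb away from an H3K27me3 peak.

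By their lowest percentile over the 4 lists, most regions lay closer to the limit than to the top. Within single lists their median percentile was 95.03 (60M replicate 2) to 95.97 (5M replicate 2). Of the 2199 regions, 953 (43.3%) were at or above the 95th percentile in all 4 lists and 136 (6.18%) at or above the 99th. Just inside the limit, chromosome 15 (75920000 to 75922999) had a lowest percentile of 90.004, from a max IP of 608.7 in 5M replicate 1. A chromosome 10 region (105277000 to 105279999) was next with 90.01, from 556 in 60M replicate 2. Just outside, regions on chromosome 14 (70131000 to 70133999) and chromosome 9 (113839000 to 113842999) had 555.9 in that library, a percentile of 89.999. Their other libraries lay between the 91.9th and 94.7th percentile. The limit thus divides regions with nearly equal signal, 556 against 555.9 in the same library. Membership also depends on the column that is ranked. When the −log10 p of the immunoprecipitate alone took the place of max IP, 2236 regions passed, of which 1416 were shared (64.4% of the 2199 and 63.3% of the 2236).

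These tall sites were 3 or 4 kb wide almost without exception. The rule allowed 1 to 4 kb, and 1334 regions (60.7%) covered 3 kb, 847 (38.5%) covered 4 kb, 18 (0.819%) covered 2 kb and 0 covered 1 kb. Of the stable narrow regions below the limit, 19.5% covered 1 kb, 52.6% covered 2 kb, 23.7% covered 3 kb and 4.30% covered 4 kb. Read by width, 52.7% of all 1607 stable 4 kb regions passed the height limit, against 24.2% of 5522 at 3 kb, 0.193% of 9317 at 2 kb and 0 of 3441 at 1 kb. Within the tall set, too, wider regions were higher. In 5M replicate 1 the median max IP was 672.1 at 2 kb, 690.55 at 3 kb and 712.9 at 4 kb, and in 60M replicate 2 it was 581.05, 602.55 and 629.5. The strongest of the 18 compact sites, looked up after the values were seen, lay on chromosome 6 (83065000 to 83066999), with 696.9 and 668.4 at 5M and 679.3 and 616.8 at 60M. Another lay on chromosome 10 (79641000 to 79642999), with 694.3 and 660.6 at 5M and 657.5 and 613.2 at 60M. Both exceeded the median of the tall set in at least 1 library of each age.

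Equal width came with equal borders. In 2196 of the 2199 regions (99.9%, exact binomial 95% interval 99.6 to 99.97%) the first and last base were the same in all 4 lists. The share was 99.8% in the stable narrow regions below the limit. The 3 others covered 4 kb in each library within a merged stretch of 5 kb. Chromosome 12 held the first (3805000 to 3809999), chromosome 15 the second (10642000 to 10646999) and chromosome 19 the last (29120000 to 29124999). Such intervals cover counting error only and take regions as units, although neighbouring regions are not independent.

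The summit, the deposited position placed here in its 1 kb bin, lay at the lower-coordinate side of nearly all tall sites. In the 3 kb regions it was in the first of the 3 bins in 95.4% and 95.7% of cases in the 5M libraries and 95.7% and 94.0% in the 60M libraries, and in the last bin in 0 of 1334 in every library. In the 844 regions whose 4 kb were identical in all lists, the first bin held it in 70.9 to 75.1%, the second in the remainder, and the bins beyond it in none. At 3 kb below the limit the first bin held 63.8 to 69.0% of summits. The side is shared by the H3K4me3 lists as a whole, where 64.1 to 65.6% of 3 kb peaks had the summit in the first bin and 0.478 to 0.887% in the last. The H3K27me3 lists had none of this, with 23.8 to 25.6% in the first and 21.4 to 23.6% in the last bin. The sources used here do not say how the peak caller places a summit, and its part in the result was not tested. A summit bin is therefore read here only for agreement between libraries.

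Most tall regions had the summit in the same bin in all libraries. At 3 kb all 4 lists named the same bin in 1265 of 1334 tall regions (94.8%), against 82.5% of 4172 regions below the limit. At 4 kb the shares were 84.6% of 844 and 79.3% of 758. Lists share a bin more often wherever most summits lie in the same bin. The first bin held 94.0 to 95.7% of tall 3 kb summits, against 63.8 to 69.0% below the limit. The contrast therefore does not show closer agreement in the tall regions. Between the replicates of an age, 97.8% (5M) and 97.2% (60M) of the tall 3 kb regions agreed, and the pairs across ages agreed in 96.3 to 97.8%. A summit that was equal within each age and different between ages was found in 44 of the 2199 regions (2.00%), each time by a single bin, 26 towards lower and 18 towards higher coordinates. Over all regions listed in 4 libraries, 4.17% met this condition, a share that also depends on how summits spread over the bins.

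**Figure D2:**
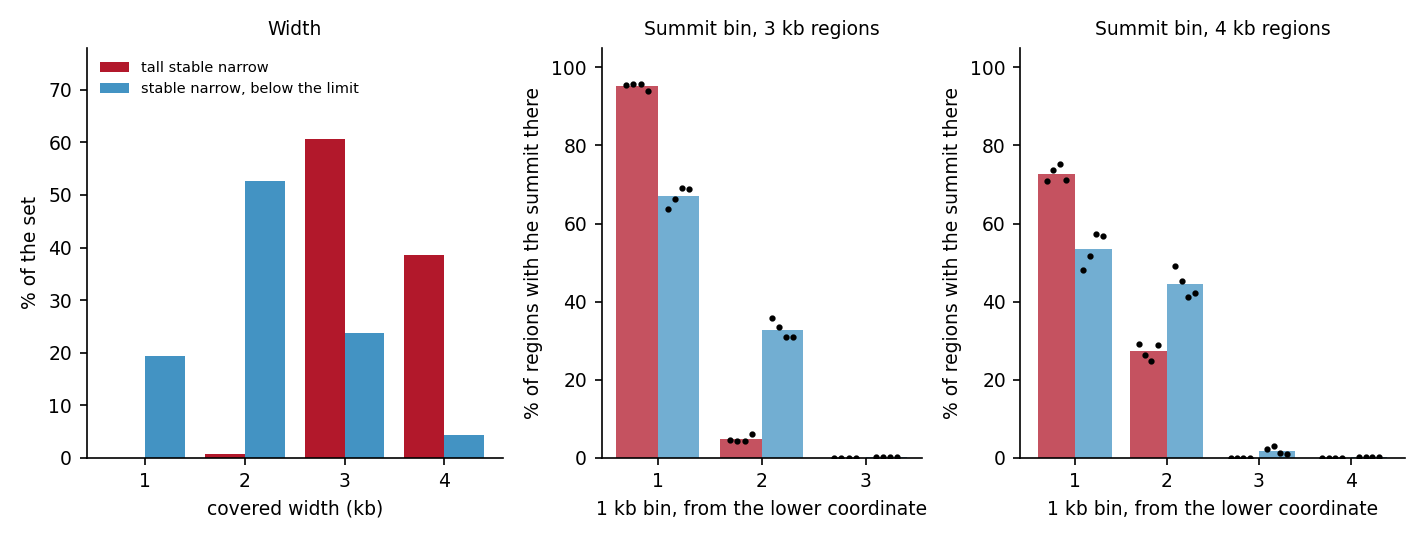
Left, percentage of the tall stable narrow regions (2199) and of those below the limit (17688) by covered width in kb. Centre and right, percentage of 3 kb and 4 kb regions with the summit in each 1 kb bin counted from the lower coordinate, with bars for the mean of 4 libraries and points for each library; the last bin held 0 of 1334 tall 3 kb summits.

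Between the ages the rank of most tall regions differed by no more than 2 percentile points, a difference that the rule itself bounds. The difference between the mean percentile of both 60M libraries and both 5M libraries had a median of -0.596 points, an interquartile range of -1.40 to 0.0839 and extremes of -5.13 and 3.95. It was at most 1 point in either direction in 1216 regions (55.3%) and at most 2 points in 1875 (85.3%). These 2 shares were not computed over all regions. Both 60M libraries ranked below both 5M libraries in 1021 regions (46.4%) and above them in 285 (13.0%), and in 893 (40.6%) the ages overlapped. Over all 35229 regions in 4 lists, 44.5% were below and 21.4% above by the same criterion. The height percentiles chose these regions, so the counts are a description with no test. A permutation test of 2 libraries against 2 could not go below p = 0.333 in any case. Replicates of an age differed too: the median shift was 0.0610 points from 5M replicate 1 to 5M replicate 2 and -0.334 points from 60M replicate 1 to 60M replicate 2, while the 4 pairs across ages gave -0.327 to -0.845.

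60M replicate 2 stood somewhat apart among the 4 libraries. It held the lowest of the 4 percentiles in 1162 regions (52.8%), against 437, 170 and 430 regions for 5M replicate 1, 5M replicate 2 and 60M replicate 1. A percentile also depends on the length of its list. The lists held 45933 and 47415 peaks at 5M and 43699 and 41637 at 60M, so 60M replicate 2 had the shortest. The part of list length in these counts was not tested, and they were not made over all regions. Spearman's rho across the 2199 regions was 0.939 between the 5M libraries, 0.891 between the 60M libraries, and 0.784 to 0.919 across ages, lowest for 5M replicate 1 with 60M replicate 2. These values describe a set with a restricted range of heights and regions that share libraries. Without 60M replicate 2, the rule kept 2695 regions and the median age difference was -0.412 points. Without 60M replicate 1 it kept 2336 regions, with a median of -0.773 points. Without 5M replicate 1 the rule kept 2325 regions (median -0.590 points), and without 5M replicate 2 it kept 2341 (-0.571 points). In each case the age with 1 library left was judged by it alone, and the medians over all regions were not computed for these runs.

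The median of the tall regions was below 0 under every scaling tried, while its place relative to all regions changed sides. On full lists it lay above the median of all regions, which was -1.52 points, and under both other scalings it lay below theirs. Percentiles leave little room for a rise near the top of a list. With every list shortened to the length of the shortest, 2098 regions met the rule with a median difference of -0.320 points, 733 of them below and 379 above at 60M. The background at equal lengths was 27.4% below and 37% above, with a median of 0.465 points over all 33109 regions. Among regions whose ages were apart, the lower share at 60M moved from 78.2% to 65.9% with the shortening. With max IP on the log2 scale, centred in each library on the regions of all 4 lists, 2177 of the 2199 regions were lower and 0 were higher at 60M. The median difference was -0.23 log2 units, where the background was 47.5% lower, 25.8% higher and a median of -0.10 log2 units. The median height of the tall regions was 3.81 and 3.65 times the median of the list at 5M, and 3.12 and 2.56 times at 60M. Centring removes an offset between libraries but not a difference in the range of signal. Lower centred values at the tall regions therefore cannot be told apart from a narrower range at 60M.

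The regions with the largest differences moved by at least 3.86 points. On chromosome 9 (106787000 to 106790999) the percentile fell by 5.13 points, from percentiles of 97.9 and 98.8 at 5M (max IP 740.4 and 715.3) to 93.1 and 93.4 at 60M (635.5 and 590.3), with the summit in the first bin at 5M and in the second at 60M. The second, on chromosome 2 (32816000 to 32818999), had max IP of 694.3 and 640 at 5M and 618.3 and 559.3 at 60M. Its percentiles were 95.76 and 95.05 at 5M and 91.74 and 90.34 at 60M. In percentiles, the 2 libraries of an age lay closer to each other than to the other age in both regions. On chromosome 17 (10510000 to 10513999) the fall rested on 1 library. Its percentile was 99.96 and 99.91 at 5M and 99.91 in 60M replicate 1, against 91.4 in 60M replicate 2 (max IP 570.3). The next were a chromosome 15 region (80084000 to 80087999), which fell by 4.07 points, and a chromosome 3 region (106349000 to 106351999), which fell by 3.98 points. The largest rise was on chromosome 10 (68674000 to 68677999), from 93.5 and 92.5 at 5M (656.7 and 603.4) to 95.3 and 98.6 at 60M (669 and 670.2). It lay 40 kb from the nearest H3K27me3 peak. A second chromosome 10 region (122115000 to 122118999) was higher by 3.93 points at 60M and lay 1 kb from an H3K27me3 peak. The other 3 of the 5 largest rises were on chromosome 13 (105843000 to 105845999, 36059000 to 36062999 and 49241000 to 49243999). They lay 1 kb from an H3K27me3 peak in the first case and bordered one in the others. The 5 regions with the largest falls were 21 to 334 kb away from such a peak. Of all 2199 regions, 13.4% lay within 10 kb of one. The named regions are extremes of the percentiles used by the rule. A relation between gap and age difference was not tested over the whole set.

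**Figure D3:**
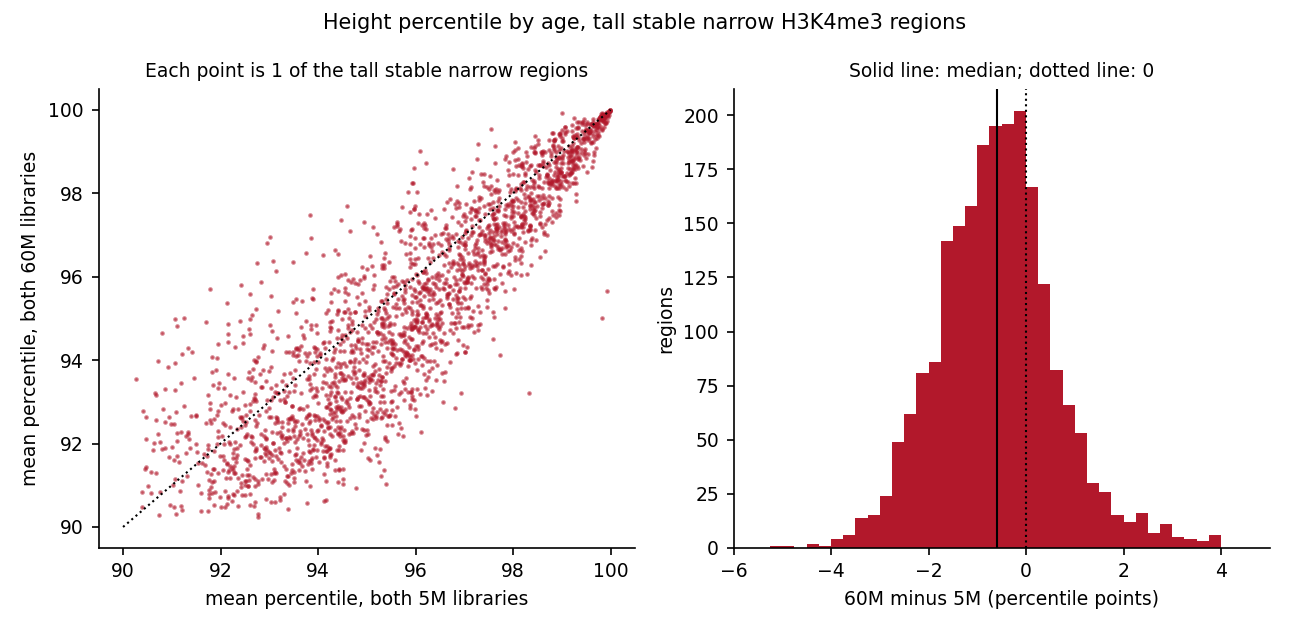
Left, mean height percentile of each of the 2199 regions in both 60M libraries against both 5M libraries; the dotted line marks equality. Right, number of regions by the 60M minus 5M difference in percentile points, with a solid line at the median of -0.596; more regions lie below equality than above it.

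Tall sites were found on all 19 autosomes and on the X chromosome, which had the fewest of these 20. The Y chromosome was not analysed here. The autosomes held 2197 of them, with shares of the regions in all 4 lists from 4.92% on chromosome 13 to 8.45% on chromosome 19, around a median of 6.03%. Chromosome 11 had the most, 198, and the highest density, 16.3 per 10 Mb, followed by chromosome 19 with 92 and 15.0 per 10 Mb. Chromosome 14 had the lowest autosomal density, 5.75 per 10 Mb. All regions in 4 lists were also densest on chromosomes 11 and 19 (193 and 178 per 10 Mb). Among autosomes they too were sparsest on chromosome 14 (102 per 10 Mb). The X chromosome held 2, or 0.200% of its 1002 regions in all 4 lists. Among stable narrow regions, 2 of 621 on the X (0.322%, exact 95% interval 0.0390 to 1.16%) passed the height limit, against 2197 of 19266 on the autosomes (11.4%, 11.0 to 11.9%). Spermatogonial cells are XY.

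Stable regions of the same width were lower on the X in every library. At 3 kb the 185 X regions had a median max IP of 382.9 in 5M replicate 1, against 560 on the autosomes, where single chromosomes ranged from 510.85 to 580.65. In 5M replicate 2 the medians were 357.9 and 530, in 60M replicate 1 373.5 and 540.3, and in 60M replicate 2 337.5 and 496.8. The ratio was 0.675 to 0.691 over the 4 libraries, and each X median lay below the lowest autosomal one. At 4 kb the ratio was 0.756 to 0.759 and at 2 kb 0.744 to 0.793. The number of X copies was not measured here, and its part in the result was not tested. Both tall X regions were 4 kb wide. The region at 12647000 to 12650999 had 676.9 and 642.8 at 5M and 642.8 and 563.4 at 60M, and that at 17738000 to 17741999 had 706.9 and 640.3 at 5M and 638 and 567.6 at 60M. Their nearest H3K27me3 peaks were 784 and 525 kb away.

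**Figure D4:**
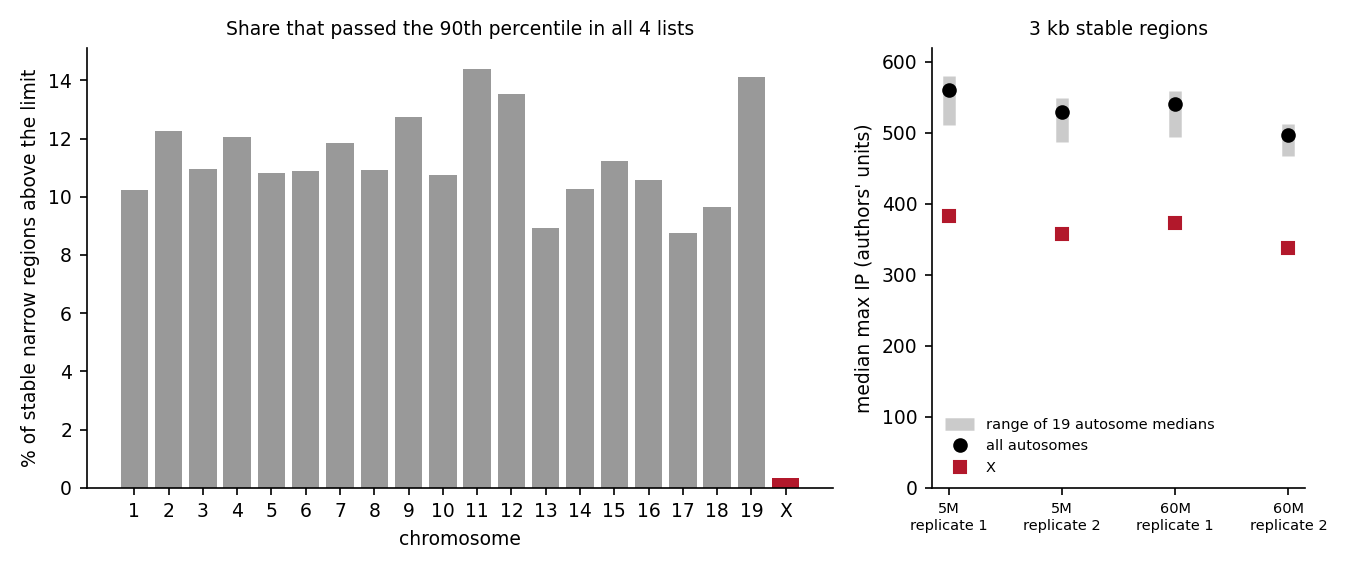
Left, percentage of the stable narrow H3K4me3 regions of each chromosome that were at or above the 90th percentile in all 4 lists, 8.76 to 14.4% on the autosomes and 0.322% on X. Right, median max IP (authors' units) of stable 3 kb regions by library on X (squares) and all autosomes (circles), with grey bars for the range of the 19 single autosomes.

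Tall sites were scattered along the chromosomes, with a few dense stretches. The gap from a tall region to the next tall one had a median of 164 kb and ran from 1 kb to 10256 kb. Another tall region lay within 10 kb of 71 regions (3.23%) and within 100 kb of 807 (36.7%), and 221 (10.1%) had none within 1 Mb. Of the windows of 1 Mb that held any region of all 4 lists, 1095 of 2477 (44.2%) held a tall one, and 533 of these held a single one. The densest, picked after the counts were seen, was the sixth megabase of chromosome 19 (5000000 to 5999999). It held 11 tall regions among 54 listed in all libraries, and the megabase after it held 7 of 42. Windows on chromosome 7 (134000000 to 134999999) and chromosome 8 (108000000 to 108999999) held 8 each, of 50 and of 31. The closest pair, 1 kb apart, was on chromosome 17 (25320000 to 25322999 and 25324000 to 25326999). The first of the pair had 731 and 699.9 at 5M and 696 and 594.5 at 60M, the second 681.5 and 642.2 at 5M and 651.5 and 602.5 at 60M. The second closest pair was also 1 kb apart, on chromosome 9 (44285000 to 44288999 and 44290000 to 44292999). There the 2 regions had percentiles between 95.9 and 97.9 in all libraries.

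Another H3K4me3 region lay within 10 kb of 1057 of the 2199 tall sites (48.1%), against 54.3% of the regions below the limit. The gap to the nearest other H3K4me3 region of any list had a median of 11 kb, against 9 kb for the regions below the limit. At equal width the medians were 10 and 10 kb at 3 kb, and 13 and 11 kb at 4 kb. The shares within 10 kb were then 50.5% and 50.6% at 3 kb, and 43.3% and 48.9% at 4 kb. That nearest region was itself listed in all 4 libraries for 1551 of the 2199 (70.5%). It was listed in both 5M and no 60M library for 172 (7.82%), and in both 60M and no 5M library for 110 (5.00%). Below the limit these shares were 67.5%, 9.32% and 4.34%. The strongest percentile of the nearest region had a median of 56.9, against 50.1 below the limit. At equal width the medians were 62.1 and 53.8 at 3 kb, and 48.0 and 49.1 at 4 kb, so the order changed with width. Of the 2199, 118 (5.37%) had another tall region as nearest neighbour, and 4.21% of the regions below the limit had a tall one.

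Tall sites lay farther from H3K27me3, by median, than lower sites of the same width. The rule removed overlaps and set no distance. The median gap to the nearest H3K27me3 peak of any library was 70 kb, and 41 kb for the regions below the limit. At 3 kb the medians were 62 and 54 kb, and at 4 kb 81 and 64.5 kb. Within 10 kb of an H3K27me3 peak lay 294 of the 2199 (13.4%), against 25.9% below the limit. At 3 kb these shares were 14.2% and 19.6%, and at 4 kb 11.9% and 16.8%. Regions are not replicates, so no test was made. Over all widths, the order was the same in each H3K27me3 library alone. Within 10 kb of its peaks, 6.73% and 9.05% of the tall regions lay at 5M and 9.05% and 7.28% at 60M, against 13.3% and 16.4%, and 18.0% and 15.3%, below the limit. At 3 kb the tall regions had 7.50% and 9.82% at 5M and 10.2% and 7.35% at 60M, against 9.72%, 12.4%, 13.4% and 11.2% below the limit. At 4 kb they had 5.31% and 7.91% at 5M and 7.32% and 7.08% at 60M, against 7.76%, 10.5%, 10.9% and 9.74%. The difference was thus smaller at equal width, with the same order in the 4 libraries. The ages did not differ beyond the spread between libraries, with 7.89 ± 1.64% of the tall regions at 5M and 8.16 ± 1.25% at 60M (SD, n = 2). H3K27me3 lists held 12002 and 14632 peaks at 5M and 14940 and 13037 at 60M. The part of their length in these shares was not tested. With H3K27me3 peaks found in both libraries of an age only, the medians were 127 kb and 98 kb.

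A small group of tall sites bordered H3K27me3 directly. In 100 regions (4.55%) the gap was 0, so that an H3K27me3 peak of at least 1 library began in the adjoining bin, and this was so for 10.3% of the regions below the limit. At equal width the shares were 4.35% against 7.83% at 3 kb and 4.96% against 7.24% at 4 kb. The highest of them by lowest percentile was on chromosome 15 (27953000 to 27956999), with 791.1 and 752.6 at 5M and 766.6 and 696.1 at 60M, all above the 99th percentile. A chromosome 12 region (74145000 to 74148999) ranked higher in both 60M libraries, with percentiles of 99.1 and 98.9 at 5M and 99.94 and 99.90 at 60M. Its max IP was 774.4 and 721.1 at 5M and 807.2 and 727.5 at 60M. Among the 5 named, chromosome 15 gave a second (85500000 to 85502999), and the rest were on chromosome 2 (156438000 to 156441999) and on chromosome 11 (3092000 to 3094999). In these 3 the lowest percentiles were between 98.5 and 98.96, so a bordering H3K27me3 peak was found also at sites near the top of the lists.

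**Figure D5:**
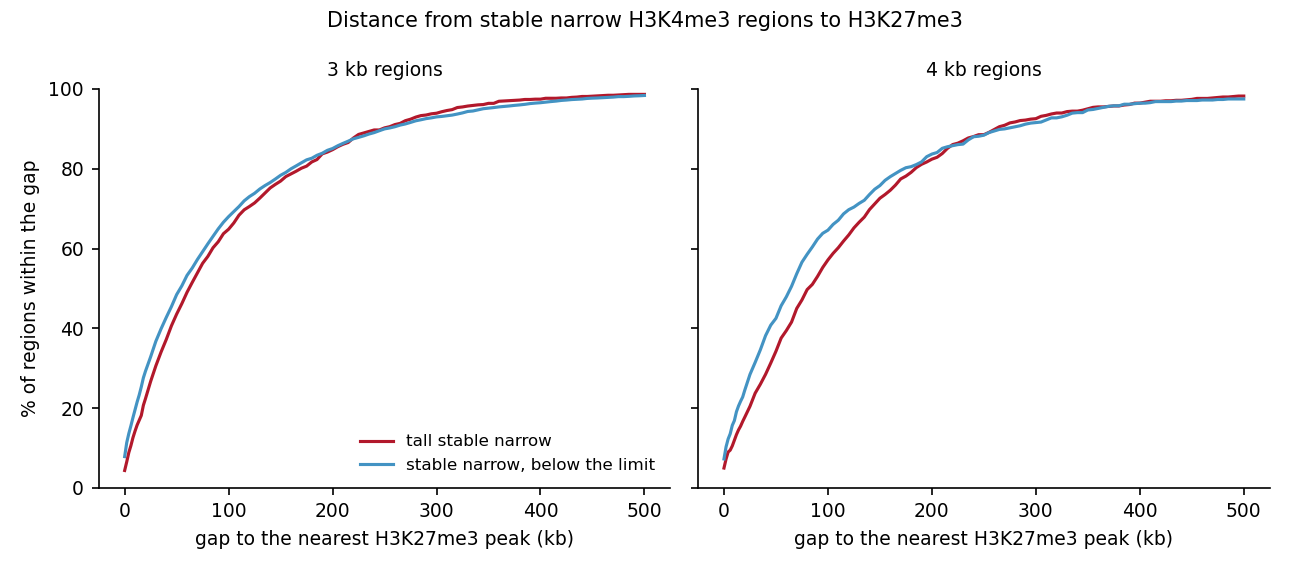
Cumulative percentage of 3 kb (left) and 4 kb (right) stable narrow H3K4me3 regions by the gap in kb to the nearest H3K27me3 peak of any library. The curve of the tall regions runs below that of the regions under the limit at short gaps, with medians of 62 against 54 kb and 81 against 64.5 kb.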

How the data were processed

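The authors deposited 1 peak list per library; the lists were called per library, against a control per the file headers. CASAVA 1.8.4, Bowtie 1.1.2 and the build mm10 are named in the submitters' processing notes, while the sources used here name no peak caller. The positions run past mm10 chromosome ends for 1331 peaks on 9 chromosomes and fit mm9, except for 2 peaks on chromosome 13 that overhang by 687 bp by the chromosome lengths in GenomeInfoDb 1.38.1. The available gene table follows GRCm38.p6 and positions were not converted, so start sites, gene lists, markers and base composition were not analysed here. Per the file headers, the deposited columns used are the maximum signal (max IP), and 2 columns of −log10 p; the deposited q-value was not used in any result. Peak widths and summits are also listed.

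Python 3.11.15 with numpy 2.4.6, pandas 2.3.3, scipy 1.17.1 and matplotlib 3.10.9 was used. Percentiles are average ranks, with ties shared, within a list; a gap counts the bases between 2 regions. Named regions were the 20 tallest, 5 largest rises and 5 largest falls with non-overlapping ages, 5 widest (all among the tallest), 5 closest pairs, 5 on either side of the limit and 5 nearest to H3K27me3; others were chosen after their values were seen. The members, comparisons and lists were chosen with earlier results of these data known. The code was tested on simulated lists, where 200 of 200 planted regions were recovered. Alternatives varied the limit, the merging, the list length, the libraries, the ranked column and the width, overlap and H3K27me3 conditions.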

Additional observations from a re-analysis of the deposited data

How the results depend on the processing

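The alternatives gave 70 recomputed values in all, of which 51 stayed within the replicate spread, the 95% interval or 1.5 times the count of the main value. A limit at the 80th percentile gave 4721 regions, an age difference of -1.21 points, an H3K27me3 gap of 63 kb, a gap between tall regions of 68 kb, 66.2% of regions at 3 kb, 0.530% of regions on X (0.0910% at the limit of 90) and 81.0% of 3 kb regions with the summit in the first bin of every list (92.4% at the limit of 90). A limit at the 95th percentile gave 953 regions, -0.272 points, 77 kb, 484 kb, 49.3%, 0% and 99.4%. Equal list lengths gave an age difference of -0.320 points, centred log2 signal -0.23 log2 units, a width limit of 3 kb 18 regions, and H3K27me3 peaks found in both libraries of an age a gap of 127 kb; the causes were not tested. Leaving out 1 H3K4me3 library gave 2325 to 2695 regions, an age difference of -0.773 to -0.412 points and a gap between tall regions of 136 to 159 kb. No paired analysis was possible because no result comes from a test between groups and the labels do not say that equal replicate numbers share a culture; by replicate number, the median age difference of the regions was -0.327 points in the first and -0.845 points in the second. Start sites and base composition were not run. The settings for the share on X and for the summit were chosen after seeing the data.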

Other observations

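Tall H3K4me3 regions that the rule left out were of 3 main kinds. Of 3548 regions at or above the 90th percentile in all 4 lists, 490 (13.8%) failed equal width alone, and in 489 of these the libraries differed by a single 1 kb bin. The mean covered width of the 490 came to 3.30 kb (5M replicate 1), 3.58 kb (5M replicate 2), 3.52 kb (60M replicate 1) and 3.37 kb (60M replicate 2), so the ages overlapped. Both 60M libraries were wider than both 5M libraries in 56 of them and narrower in 34, and 400 were neither. These counts were not made over all regions, so they are not read as a difference between the ages. A further 312 (8.79%) failed the width limit alone, and 361 (10.2%) failed both.

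A peak of H3K27me3 in any library overlapped 186 of the 3548 tall regions (5.24%), against 4885 of all 35229 regions in 4 lists (13.9%). Of the tall regions, 65 regions (1.83%) were left out for this alone. By H3K27me3 library, the share of the 3548 with an overlap was 2.99% and 4.31% at 5M and 2.45% and 2.09% at 60M. Over all 35229 regions it was 8.57% and 11.3% at 5M and 8.19% and 7.97% at 60M, so both sets had the lower shares at 60M. In 7 of the 65 the overlap was found in all 4 libraries and in 26 in a single one.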
